A study of Mus musculus with 10 samples.

Results

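The 30 genes described here encode enzymes and regulators of cholesterol and fatty acid synthesis. They were chosen by name, as a gene module, and all 30 were found among the 49568 genes of the table. Levels were measured by RNA sequencing of reactive cholangiocytes, the bile duct cells that expand in injured liver, in 2 cohorts of mice. The first was 5 *Smad4del* mice, labelled Smad4fl/fl, in which *Alb-Cre*, a Cre recombinase driven by the albumin promoter and so active in liver epithelium at large, deletes *Smad4*. The second was 5 *Ctl* mice, labelled Smad4wt/wt. The study describes *Ctl* cohorts of its DDC experiments as lacking *Alb-Cre*, but the labels do not say whether each *Ctl* mouse sequenced here carried it. All 10 mice received a diet with 0.1% 3,5-diethoxycarbonyl-1,4-dihydrocollidine (DDC), which injures bile ducts, for 2 weeks, so no uninjured liver is compared here. Cells were sorted as EPCAM+, CD45- and TER119- from digested livers and gave 1 sample per mouse. The background was mixed, littermates served as controls where possible, and age, sex and litter are not given in the labels. The mice are named by the submitters' numbers, and each value is a count divided by 1 size factor per mouse (normalized count).

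Cholesterol is built from acetyl-CoA. The mevalonate arm makes isoprenoid units and joins them to farnesyl diphosphate, and the squalene and sterol enzymes turn that into squalene, lanosterol and, after a series of demethylations and reductions, cholesterol. Transcription of most of these genes is driven by the SREBP factors. When membranes hold little sterol, SCAP escorts SREBPs from the endoplasmic reticulum to the Golgi, where they are cut and released to the nucleus, and INSIG proteins hold SCAP back when sterol is plentiful. SREBP1 also drives fatty acid synthesis, which starts from the same acetyl-CoA and consumes NADPH. In the liver most of this synthesis is known from hepatocytes, and cholangiocytes handle the cholesterol and bile acids that reach the duct.

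Between 16734672 and 19710560 reads were assigned to genes per *Smad4del* mouse, against 16249719 to 21277339 per *Ctl* mouse. *Smad4* itself stood at 812, 1031, 687, 1011 and 846 normalized counts in *Smad4del* mice, against 3058, 3714, 3584, 2969 and 3619 in *Ctl* mice, so the cohorts did not overlap (log2 fold change -1.96, limma adjusted p = 1.09e-05). All 15 cholangiocyte markers were detected in every mouse, at a mean log2 level of 13.4 to 13.7 in *Smad4del* mice and 13.0 to 13.5 in *Ctl* mice. Of the 15, 2 were called higher in *Smad4del* by limma (13.3%) and 8 were at an unadjusted p under 0.05. Fold changes were above 0 for 13 and below 0 for 2. These markers took 3.95 to 4.76% of the normalized counts in *Smad4del* mice and 2.56 to 3.92% in *Ctl* mice, without overlap. Other cell types were also present, and several moved with the cohort. Endothelial markers had a mean log2 level of 8.42 to 9.55 in *Smad4del* mice, against 10.0 to 11.5 in *Ctl* mice. Of these, 10 of 12 were called lower in *Smad4del* by limma, and all 12 fold changes were below 0. Macrophage markers lay at 6.36 to 11.3 in *Smad4del* mice, against 8.32 to 13.5 in *Ctl* mice, with 0 of 12 called by limma, 12 of 12 at an unadjusted p under 0.05 and all 12 fold changes below 0. *Smad4del* mouse A5624 had 2 macrophage markers at 0, and the other mice had none. Stellate cell and fibroblast markers lay at 8.39 to 8.89 in *Smad4del* mice, against 8.98 to 10.8 in *Ctl* mice. Of these, 2 of 10 were called lower in *Smad4del* by limma, 6 were at an unadjusted p under 0.05, and all 10 fold changes were below 0. Hepatocyte markers lay at 10.4 to 11.6 in *Smad4del* mice and 10.03 to 11.04 in *Ctl* mice. Of these markers, 0 of 19 were called by limma and 6 were at an unadjusted p under 0.05 (4076 of 14870 over all genes tested). Of 15 cell cycle genes, 8 were called higher in *Smad4del*. The mean log2 level of the 15 was 9.17 to 9.50 in *Smad4del* mice, against 7.87 to 8.95 in *Ctl* mice. Over all genes tested, 2.43% were called higher and 4.69% lower. In such bulk samples, fewer cells of a type and less RNA per cell cannot be told apart.

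Most of the cholesterol and fatty acid synthesis program differed little between the cohorts, with a few exceptions. Of the 30 members, all of which passed the minimum mean of 10 normalized counts, *Hsd17b7* and *Msmo1*, which act in the same demethylation of the sterol ring, fell in *Smad4del* cholangiocytes to 0.617 and 0.698 times the *Ctl* level, and *Me1*, which makes NADPH for lipid synthesis, rose to 1.40 times the *Ctl* level. The other 27 members did not pass the test (limma on log2(normalized count + 1), Benjamini-Hochberg adjusted p under 0.05). Of the 30 members, 3.33% were called higher and 6.67% lower, against 2.43% higher and 4.69% lower over all 14870 genes tested, so the share of members called was near the background. The split over all genes was 362 higher and 697 lower, and became 626 higher and 639 lower when each mouse was scaled to the same median. Groups did not overlap for 1 member higher in *Smad4del* and 2 lower, against 3.5% and 4.59% of all genes tested.

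As a set the members moved little. Fold changes were above 0 for 15 members and below 0 for 15, with a median log2 fold change of -0.00011, against -0.0050 over all genes tested. The median size of the log2 fold change, regardless of sign, was 0.135 for the members, against 0.266 for all genes tested and 0.186 for the 7114 genes with a mean of at least 500 normalized counts. For the 27 members not called, the 95% interval of the log2 fold change lay within -1 to 1 for 25 and within -0.5 to 0.5 for 17. A change of 2-fold or more was therefore outside the interval for 25 of them, and a log2 change of 0.5 or more in size for 17. Changes that lay inside a gene's own interval were not resolved. The members together took 0.288 to 0.385% of the normalized counts in *Smad4del* mice and 0.308 to 0.368% in *Ctl* mice, and these ranges overlapped. The limma p-values weigh the cohort difference against the spread between these mice, with the variance of each gene moderated over all genes tested.

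**Figure D1:**
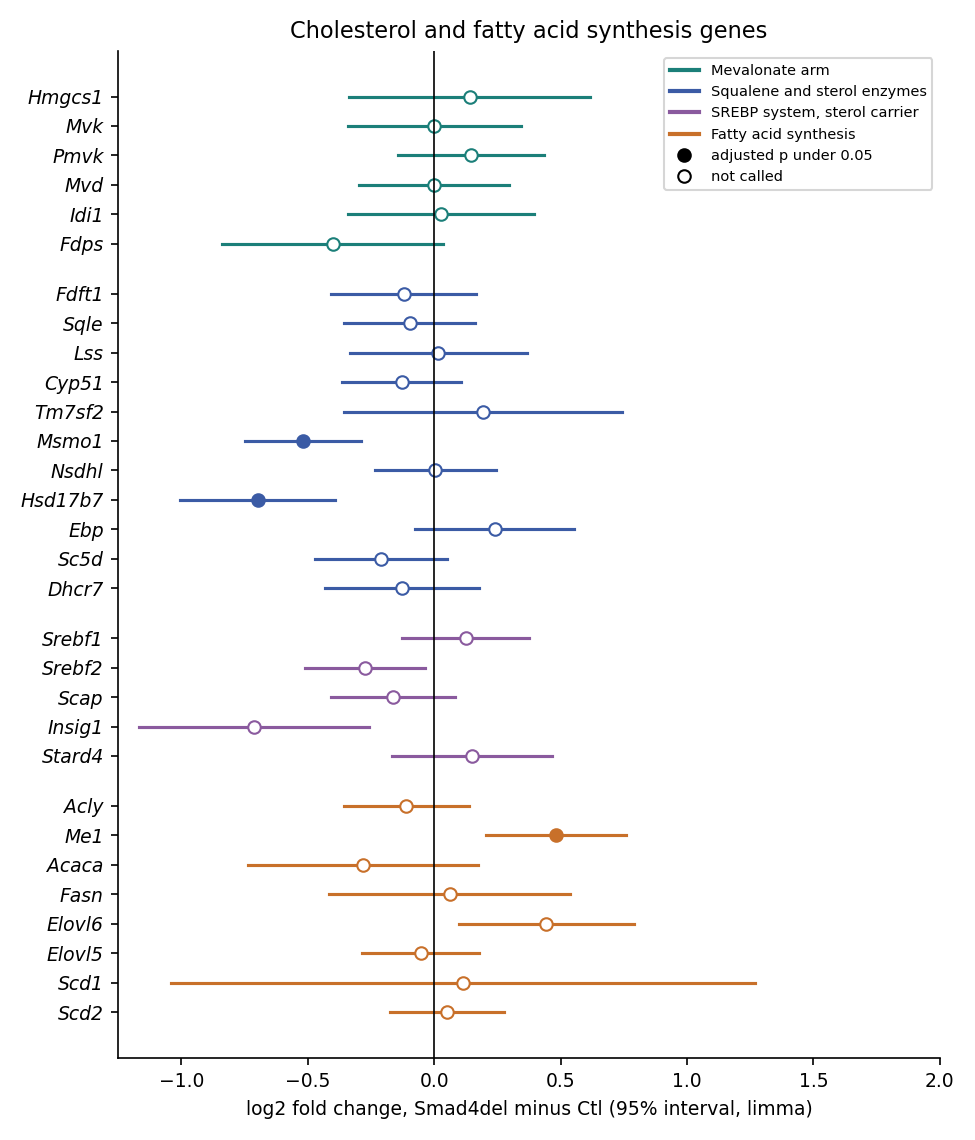
Log2 fold change (*Smad4del* minus *Ctl*, x axis) of each of the 30 members with its 95% interval from limma, grouped by role, with filled points for adjusted p under 0.05. *Msmo1* and *Hsd17b7* lie left of 0 and *Me1* right of it, the intervals of *Insig1* (-1.17 to -0.26), *Srebf2* (-0.51 to -0.03) and *Elovl6* (0.10 to 0.79) also miss 0 although these genes were not called, and the interval of *Scd1* is the widest (-1.04 to 1.27).

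Among the squalene and sterol enzymes, 0 of 11 members were called higher and 2 lower (18.2%), against 4.69% lower over all genes tested. Fold changes were above 0 for 4 of the 11 and below 0 for 7. *Hsd17b7* and *Msmo1*, together with *Nsdhl*, encode the enzymes that strip a pair of methyl groups from the same carbon of the sterol ring: MSMO1 oxidises the methyl group, NSDHL removes the resulting carboxyl group, and HSD17B7 reduces the ketone that is left. *Hsd17b7* had 532, 486, 418, 559 and 342 normalized counts in *Smad4del* mice A5216, A5217, A5218, A5447 and A5624, against 736, 702, 706, 760 and 841 in *Ctl* mice A5215, A5219, A5221, A5626 and A5628. Every *Smad4del* mouse lay below every *Ctl* mouse, with A5624 the lowest. Its mean was 467 ± 88.0 in *Smad4del* and 749 ± 56.9 in *Ctl* (SD, n = 5 each), a log2 fold change of -0.70 (SE 0.141, limma adjusted p = 0.0154, exact permutation p = 0.00794, two-sided, the smallest that 5 mice against 5 can give).

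*Msmo1* had 2804, 2208, 2015, 2415 and 2106 normalized counts in the 5 *Smad4del* mice, against 3387, 3190, 2808, 3645 and 3477 in the 5 *Ctl* mice, in the same order of mice. The cohorts did not overlap, but only by a narrow gap, since *Smad4del* mouse A5216 (2804) lay just under *Ctl* mouse A5221 (2808). The mean was 2310 ± 314 in *Smad4del* and 3302 ± 321 in *Ctl*, a log2 fold change of -0.52 (SE 0.106, limma adjusted p = 0.0158, exact permutation p = 0.00794). *Nsdhl*, the enzyme between them, averaged 888 ± 83.1 in *Smad4del* and 888 ± 109 in *Ctl*, with an interval of -0.23 to 0.24 that overlapped neither that of *Msmo1* (-0.75 to -0.29) nor that of *Hsd17b7* (-1.005 to -0.39). The difference between the genes was not tested. *Hsd17b7* and *Msmo1* stayed called when any 1 mouse was left out (adjusted p of 0.0124 to 0.0431 and 0.00896 to 0.0463), though *Msmo1* was not called by edgeR without A5217 (adjusted p = 0.0633). Both calls were kept with the hepatocyte level in the fit (limma adjusted p = 0.031 for *Hsd17b7* and 0.015 for *Msmo1*). Both ended with the macrophage or the endothelial level in the fit. *Hsd17b7* kept a log2 fold change of -0.68 (SE 0.180, adjusted p = 0.0584) with the macrophage level and -0.71 (SE 0.303, adjusted p = 0.995) with the endothelial level, so its fold change was about as large and its SE wider. *Msmo1* was at -0.44 (SE 0.129, adjusted p = 0.0737) with the macrophage level and -0.36 (SE 0.219, adjusted p = 0.995) with the endothelial level. With the endothelial level in the fit, 0 of 14870 genes were called. Endothelial levels did not overlap between the cohorts, so that level and the *Smad4* genotype cannot be told apart in this fit.

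The RefSeq promoters (GRCm38.p6) of the members called are shown because they are the sequences next to the transcripts that moved. Each line runs from 250 bases before to 50 bases after the annotated start site, 5′ to 3′ on the gene's strand. Capitals mark a CCAAT box (CCAAT on either strand, so also ATTGG), the palindromic E-box CACGTG, the sterol response element TCACNCCAC and the antioxidant response element TGACNNNGC, each searched on both strands. The last of these was added after the sequences had been seen.

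*Hsd17b7*, chr1:169969156-169969455, minus strand: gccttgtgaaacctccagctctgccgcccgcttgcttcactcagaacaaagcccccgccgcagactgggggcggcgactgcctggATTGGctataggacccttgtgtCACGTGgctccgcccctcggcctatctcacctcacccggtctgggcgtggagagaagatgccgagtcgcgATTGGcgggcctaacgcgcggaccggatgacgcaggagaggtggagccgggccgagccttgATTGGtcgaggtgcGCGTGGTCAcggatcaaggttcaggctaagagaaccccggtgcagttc

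*Msmo1*, chr8:64733529-64733828, minus strand: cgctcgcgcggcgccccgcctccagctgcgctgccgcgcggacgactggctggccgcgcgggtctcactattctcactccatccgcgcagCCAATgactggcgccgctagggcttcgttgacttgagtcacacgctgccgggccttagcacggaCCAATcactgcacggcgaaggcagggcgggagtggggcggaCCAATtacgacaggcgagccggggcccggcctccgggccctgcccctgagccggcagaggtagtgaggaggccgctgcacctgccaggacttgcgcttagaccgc

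*Me1*, chr9:86695865-86696164, minus strand: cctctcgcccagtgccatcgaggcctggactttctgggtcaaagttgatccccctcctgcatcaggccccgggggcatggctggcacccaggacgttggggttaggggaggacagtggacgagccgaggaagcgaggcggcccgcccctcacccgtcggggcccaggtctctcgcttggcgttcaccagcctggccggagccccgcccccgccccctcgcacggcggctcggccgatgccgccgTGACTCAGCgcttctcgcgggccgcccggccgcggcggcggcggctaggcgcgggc

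Both genes that fell hold 3 CCAAT boxes, the site of NF-Y, a factor known to act beside SREBPs on sterol genes. They begin 165, 73 and 12 bases before the start site in *Hsd17b7*, which also holds an E-box at 143 bases before it and an antioxidant response element 2 bases after it. In *Msmo1* they begin 160, 96 and 55 bases before the start site. The window of *Me1* holds neither of these boxes but an antioxidant response element 6 bases before the start site. The sterol response element is not in any of the 3 windows. Of the 24 members with an entry, 19 (79.2%) hold a CCAAT box, 5 (20.8%) the E-box, 3 (12.5%) the antioxidant response element, 1 (4.17%, *Hmgcs1*) the sterol response element and 0 the palindromic SMAD box GTCTAGAC. Over all 32851 promoters the shares are 37.4%, 7.15%, 12.4%, 1.24% and 0.213%. Over the 14080 promoters of genes tested they are 37.2%, 9.4%, 14.3%, 1.17% and 0.22%. The CCAAT box is thus common among members whether or not their level moved, and a match is a description of letters only. *Fdps*, *Fdft1*, *Sqle*, *Stard4*, *Scd1* and *Scd2* were not matched. The start site matched for *Acaca* lies 65766 bases from its GENCODE gene start. The genes lie at chr1:169949535-169969241 (*Hsd17b7*), chr8:64718139-64733792 (*Msmo1*) and chr9:86581371-86695953 (*Me1*) in GENCODE M21 on GRCm38, all on the minus strand. By the RefSeq start sites, the windows cover the first transcribed bases and the sequence just upstream. The GENCODE gene start lies 36, 214 and 39 bases upstream of the RefSeq start site for *Hsd17b7*, *Msmo1* and *Me1*, within each window. All 3 CCAAT boxes of *Msmo1*, the *Hsd17b7* box at 12 bases and the *Me1* element at 6 bases therefore lie inside the GENCODE gene.

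The other 8 sterol enzymes in the squalene branch did not pass the test. *Sc5d*, a desaturase late in the pathway, had 2227, 2218, 1643, 2015 and 1874 normalized counts in *Smad4del* mice, against 2013, 2055, 2128, 2683 and 2699 in *Ctl* mice. The cohorts overlapped (log2 fold change -0.21, limma adjusted p = 0.273, unadjusted exact permutation p = 0.167). *Cyp51*, which removes a methyl group from lanosterol, averaged 4501 ± 685 in *Smad4del* and 4898 ± 441 in *Ctl*. *Sqle*, squalene epoxidase and a control point of the pathway, averaged 3259 ± 410 in *Smad4del* and 3494 ± 516 in *Ctl*. *Fdft1*, squalene synthase, averaged 2149 ± 275 in *Smad4del* and 2350 ± 416 in *Ctl*. These mean differences were within the spread between mice. *Lss*, which folds squalene epoxide into lanosterol, averaged 924 ± 151 in *Smad4del* and 919 ± 190 in *Ctl*, and *Dhcr7*, which catalyses the last reduction, 915 ± 182 in *Smad4del* and 986 ± 81.6 in *Ctl*. *Ebp*, a sterol isomerase, averaged 1003 ± 184 in *Smad4del* and 844 ± 114 in *Ctl* (log2 fold change 0.24, 95% interval -0.07 to 0.55). *Tm7sf2*, a sterol reductase, ran from 189 to 463 in *Smad4del* mice, the widest spread of the group relative to its mean in that cohort, and from 198 to 276 in *Ctl* mice. The 11 log2 fold changes had a median of -0.12.

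In the mevalonate arm 0 of 6 members were called in either direction, and the median log2 fold change was 0.01. *Fdps*, farnesyl diphosphate synthase, came nearest, with 81.9, 111, 78.1, 93.0 and 106 normalized counts in *Smad4del* mice, against 127, 99.4, 123, 132 and 139 in *Ctl* mice. The cohorts overlapped only through *Ctl* mouse A5219 (log2 fold change -0.40, SE 0.200, limma adjusted p = 0.216, unadjusted exact permutation p = 0.0238). The count of *Fdps* is uncertain, because 26.7% of its exon bases lie in other annotated genes and 21.4% of its 100-base stretches, the read length, also occur in other transcripts. Its processed pseudogenes *Gm3571* and *Gm5873* had at most 10.5 and 7.4 normalized counts in any mouse. *Hmgcs1*, which makes HMG-CoA, ranged from 2614 to 7726 in *Smad4del* mice, with A5447 far above the others, and from 3513 to 4275 in *Ctl* mice. *Mvk* and *Pmvk*, the kinases of mevalonate, averaged 366 ± 34.6 and 590 ± 96.1 in *Smad4del* and 371 ± 74.2 and 530 ± 51.5 in *Ctl*. *Mvd*, the decarboxylase that follows, averaged 584 ± 88.8 in *Smad4del* and 582 ± 68.6 in *Ctl*, and *Idi1*, the isoprenoid isomerase, 357 ± 54.8 in *Smad4del* and 352 ± 67.0 in *Ctl*. For *Mvk*, *Mvd* and *Idi1* the log2 fold changes were at most 0.03 in size.

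**Figure D2:**
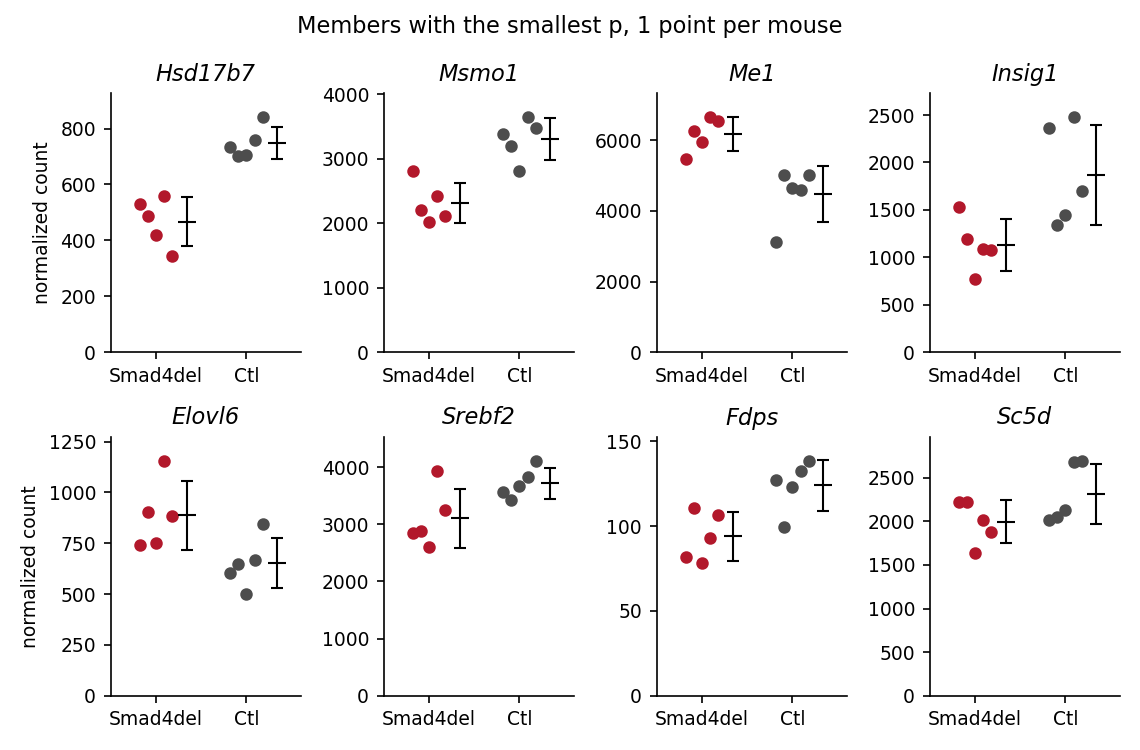
Normalized counts (y axis, from 0) of the 8 members with the smallest limma p, 1 point per mouse for 5 *Smad4del* (left) and 5 *Ctl* (right) mice, with the mean and SD beside the points. The cohorts are apart for *Hsd17b7*, *Msmo1* and *Me1* and overlap for the other 5.

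The SREBP system had 0 of 5 members called in either direction and a median log2 fold change of -0.16. *Insig1*, itself a classical SREBP target that feeds back on the pathway, had the largest fold change of all 30 members in size. It stood at 1525, 1188, 769.8, 1087 and 1074 normalized counts in *Smad4del* mice, against 2365, 1338, 1451, 2479 and 1694 in *Ctl* mice. The cohorts overlapped, because *Smad4del* mouse A5216 (1525) lay above *Ctl* mice A5219 (1338) and A5221 (1451), and the *Ctl* mice themselves were spread over 1338 to 2479. With means of 1129 ± 271 in *Smad4del* and 1865 ± 526 in *Ctl*, the log2 fold change was -0.71 (SE 0.208) and missed the threshold (limma adjusted p = 0.0587). By the exact permutation test *Insig1* had an unadjusted p of 0.0238. It was called without A5216 (0.0370) or A5219 (0.0364), with the hepatocyte level (0.0216) or *Xist* (0.0462) in the fit, and by DESeq2 on the recovered reads (adjusted p = 0.00952), where 4 of the 30 members were called, against 14.7% of 14801 genes in either direction. Its log2 fold change was 0.084 with the endothelial level in the fit.

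*Srebf2*, which encodes the SREBP that favours cholesterol genes, had 2842, 2880, 2607, 3942 and 3244 normalized counts in *Smad4del* mice, against 3561, 3419, 3665, 3829 and 4119 in *Ctl* mice. Of the *Smad4del* mice, 4 lay below all *Ctl* mice, while A5447 lay within them (log2 fold change -0.27, SE 0.109, limma adjusted p = 0.135, unadjusted exact permutation p = 0.0556). Without A5447 it was called lower (adjusted p = 0.0312). *Srebf1* averaged 2910 ± 394 in *Smad4del* and 2669 ± 347 in *Ctl*. *Scap*, the escort of both SREBPs, averaged 1145 ± 154 in *Smad4del* and 1280 ± 131 in *Ctl*, and *Stard4*, a carrier that moves sterol between membranes, 694 ± 146 in *Smad4del* and 616 ± 42.5 in *Ctl*. None of these 3 differed by more than the spread between mice.

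In fatty acid synthesis 1 of 8 members was called higher (12.5%) and 0 lower, against 2.43% higher over all genes tested. Fold changes were above 0 for 5 of the 8 and below 0 for 3, with a median log2 fold change of 0.06. *Me1*, the cytosolic malic enzyme, had 5474, 6254, 5959, 6655 and 6541 normalized counts in *Smad4del* mice, against 3109, 5025, 4637, 4597 and 5006 in *Ctl* mice. The lowest *Smad4del* mouse lay above the highest *Ctl* mouse, and A5215 lay well below the 4 other *Ctl* mice. The means were 6177 ± 477 in *Smad4del* and 4475 ± 789 in *Ctl*, a log2 fold change of 0.48 (SE 0.127, limma adjusted p = 0.0428, exact permutation p = 0.00794). The call was close to the threshold. It was kept without A5215 (log2 fold change 0.36, adjusted p = 0.0294) but lost without A5217, A5218, A5221, A5447, A5624 or A5626, at log2 fold changes of 0.45 to 0.50 (adjusted p of 0.0608 to 0.0951), and by edgeR at 0.47 (adjusted p = 0.0556). It was also lost with the macrophage level (log2 fold change 0.26, SE 0.116, adjusted p = 0.200) or the endothelial level (0.08, SE 0.237, adjusted p = 0.995) in the fit. *Ctl* mouse A5215 also had the highest macrophage and endothelial levels of all mice, and their part in its low *Me1* was not tested. Of the 100-base stretches of *Me1*, 14.6% also occur in other transcripts, of which the pseudogene *Gm7329* had at most 2.0 normalized counts in any mouse.

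*Elovl6*, which lengthens palmitate to stearate, had 739, 901, 753, 1157 and 885 normalized counts in *Smad4del* mice, against 604, 649, 500 and 669 in 4 *Ctl* mice and 844 in A5628. It was not called (log2 fold change 0.44, SE 0.159, limma adjusted p = 0.103, unadjusted exact permutation p = 0.0317), and the cohorts overlapped through A5628. *Acly*, which supplies acetyl-CoA from citrate, averaged 6268 ± 959 in *Smad4del* and 6733 ± 736 in *Ctl*. *Fasn*, fatty acid synthase, averaged 2903 ± 928 in *Smad4del* and 2706 ± 561 in *Ctl*. *Acaca*, the carboxylase that commits acetyl-CoA to fatty acids, averaged 145 ± 28.5 in *Smad4del* and 176 ± 36.0 in *Ctl*, and its count is uncertain because 23.7% of its 100-base stretches occur in other transcripts. *Elovl5*, an elongase of polyunsaturated fatty acids, averaged 2164 ± 228 in *Smad4del* and 2250 ± 280 in *Ctl*, and *Scd2*, a desaturase, 6480 ± 865 in *Smad4del* and 6230 ± 591 in *Ctl*. For these 5 genes the cohorts overlapped and the differences were within the spread between mice.

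*Scd1*, the main stearoyl-CoA desaturase of liver, varied more than any other member within both cohorts. It had 921, 1280, 335, 251 and 860 normalized counts in *Smad4del* mice, against 1128, 333, 454, 1220 and 275 in *Ctl* mice. The mice fell into a higher set of 3 *Smad4del* and 2 *Ctl* mice (860 to 1280) and a lower set of 2 *Smad4del* and 3 *Ctl* mice (251 to 454), which cuts across the genotype. The 5 mice of the higher set were also the 5 with the highest hepatocyte marker level (10.98 to 11.6, against 10.03 to 10.90 on the log2 scale in the other 5). The 3 mice with *Xist* RNA (889 in *Smad4del* A5447, 769 and 823 in *Ctl* A5221 and A5628, at most 1.7 elsewhere) were all in the lower set. This split was seen in the values and was not tested. The log2 fold change of *Scd1* between cohorts was 0.11 (SE 0.529), and -0.45 (SE 0.383) with the hepatocyte level in the fit, neither called.

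**Figure D3:**
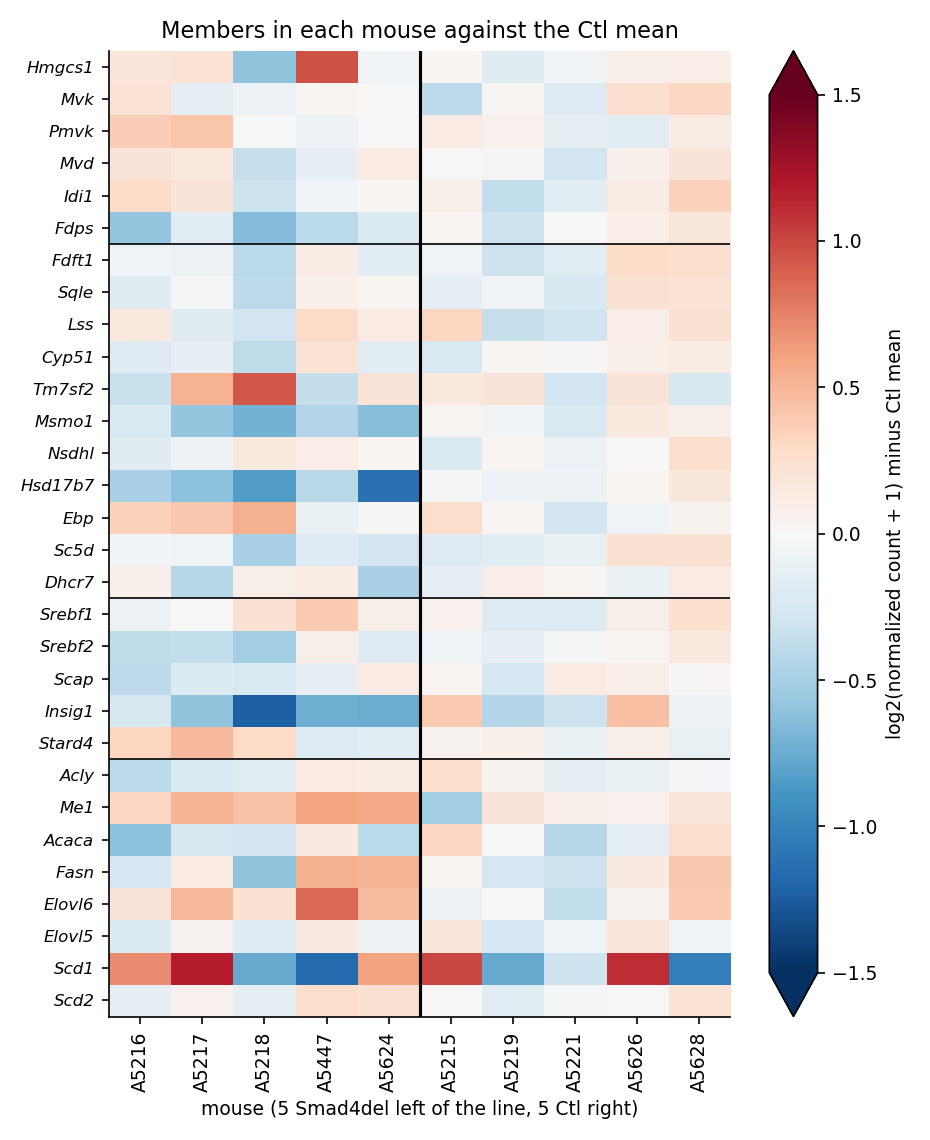
Log2(normalized count + 1) of each member (rows, by role) in each mouse (columns, 5 *Smad4del* left of the line and 5 *Ctl* right) minus the *Ctl* mean, with red above and blue below and colours capped at 1.5. *Msmo1* and *Hsd17b7* are below the *Ctl* mean in all 5 *Smad4del* mice and *Me1* above it, while *Scd1* runs from high to low inside each cohort.

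Within each cohort, single mice were the highest or lowest for many members. Within the *Smad4del* cohort, A5447 had the highest value for 16 of the 30 members and A5218 the lowest for 13. Within the *Ctl* cohort, A5628 had the highest value for 15 members, and A5219 and A5221 the lowest for 11 and 10. The mean deviation of a mouse from its cohort over the 30 members ran from -0.17 (A5218) to 0.08 (A5217) in *Smad4del* mice and from -0.16 (A5221) to 0.12 (A5626) in *Ctl* mice, in log2 units. The members share these 10 samples, so mice that are high or low for many of them are not independent evidence for each gene.

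Per kilobase of exon, the level at which genes can be compared with each other, the cohorts gave nearly the same order. The highest in *Smad4del* were *Me1* (1605 ± 124 normalized counts per kilobase), *Acly* (1187 ± 182), *Scd2* (1186 ± 158), *Cyp51* (1020 ± 155) and *Hmgcs1* (1015 ± 411). In *Ctl* the same 5 genes led, with *Acly* (1275 ± 139) before *Me1* (1163 ± 205), *Scd2* (1140 ± 108), *Cyp51* (1109 ± 99.9) and *Hmgcs1* (868 ± 68.9). Among these 5, only *Me1* stood apart from its neighbour beyond the SDs in *Smad4del*, and in *Ctl* these neighbours overlapped down to *Cyp51*. *Insig1* was 14th of 30 in *Smad4del* (365 ± 87.7) and 8th in *Ctl* (603 ± 170), and *Hsd17b7* was 26th in *Smad4del* (91.6 ± 17.2) and 21st in *Ctl* (147 ± 11.2). *Fdps* (22.4 ± 3.44 in *Smad4del*, 29.5 ± 3.58 in *Ctl*) and *Acaca* (8.47 ± 1.67 in *Smad4del*, 10.3 ± 2.11 in *Ctl*) were the lowest 2 in both cohorts, and both share stretches with other transcripts. Exon length was taken as the union of all exons in GENCODE M21, which is later than the annotation the reads were counted on. *Idi1* (21.9%), *Fdft1* (18.3%, with *Ctsb*), *Hmgcs1* (8.22%), *Tm7sf2* (7.92%) and *Scap* (6.59%) also share over 5% of their 100-base stretches with other genes and are uncertain to that extent, and *Msmo1*, *Hsd17b7* and *Insig1* share 0%.

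**Figure D4:**
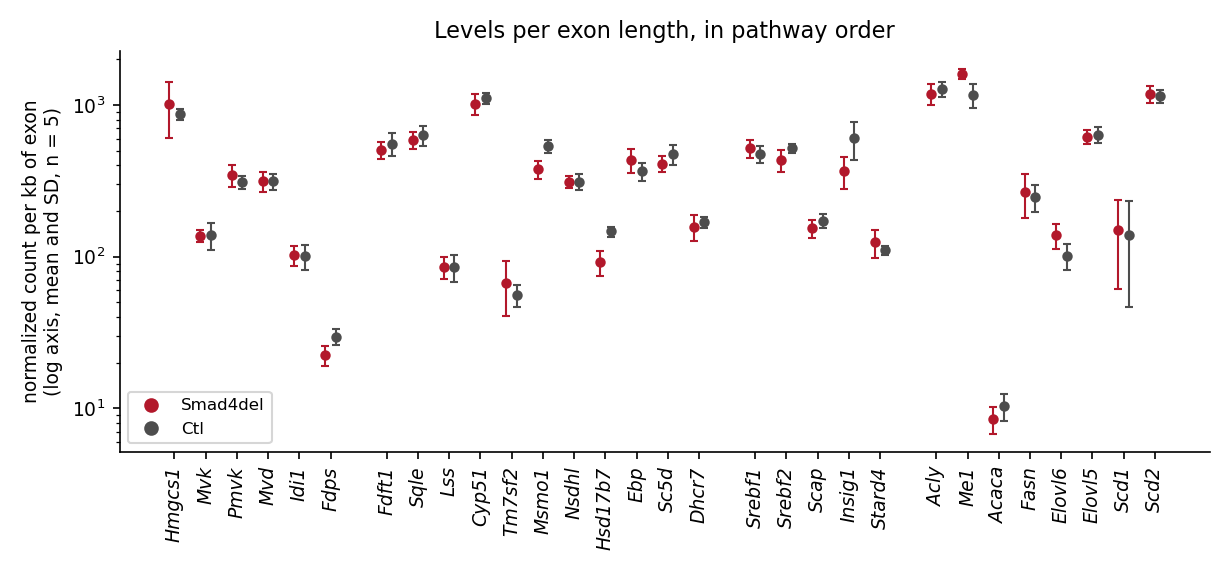
Mean normalized count per kilobase of exon (y axis, log scale) with the SD over 5 *Smad4del* (left of each pair) and 5 *Ctl* mice for the 30 members in pathway order. The members span from *Acaca* (8.47 in *Smad4del*) to *Me1* (1605 in *Smad4del*), and most pairs overlap.

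Of 69 further genes of the pathways, 67 reached the minimum mean (*Abcg8* and *Elovl3* did not). Of these, 2 were called higher (*Mlxipl* and *Scd3*) and 2 lower (*Abcg1* and *Mylip*), or 2.99% in each direction, again near the share over all genes. Of the 23 other sterol and isoprenoid genes among them, 0 were called by limma in either direction and 7 were at an unadjusted p under 0.05, near the share over all genes (4076 of 14870), with a median log2 fold change of -0.08.

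Among the 12 sterol efflux and LXR target genes tested, 0 were called higher and 2 lower (16.7%), against 4.69% lower over all genes tested. Of these 12 fold changes, 11 were below 0, against 7527 of 14870 over all genes. The median was -0.74, against -0.0050 over all genes. An unadjusted limma p under 0.05 was reached by 7 of the 12, against 4076 of 14870. LXR factors sense oxysterols and drive removal of cholesterol from cells. *Abcg1*, a cholesterol exporter, had 450, 179, 162, 158 and 68.9 normalized counts in *Smad4del* mice, against 1332, 510, 701, 772 and 335 in *Ctl* mice (log2 fold change -1.95, limma adjusted p = 0.0274). *Mylip*, which encodes a ubiquitin ligase induced by LXR, had 311, 60.9, 98.4, 114 and 135 in *Smad4del* mice, against 1535, 356, 309, 625 and 310 in *Ctl* mice (-2.02, adjusted p = 0.0322). For both genes A5216 was the highest *Smad4del* mouse, A5215 was the highest *Ctl* mouse, and A5216 lay above the lowest *Ctl* mouse. These are also the mice with the highest macrophage level of their cohorts (11.3 in A5216 and 13.5 in A5215). With the macrophage level in the fit both calls were lost, at log2 fold changes of -0.94 (SE 0.298) for *Abcg1* and -1.18 (SE 0.469) for *Mylip*. With the endothelial level *Abcg1* was at -1.39 (SE 0.984) and *Mylip* at -0.0079 (SE 0.836), neither called. The part of macrophage and endothelial RNA in these genes was not tested beyond those fits. *Abcg1* was no longer called without A5215, A5217, A5218, A5221 or A5626, and *Mylip* without A5217, A5218, A5624 or A5626.

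Of the 32 other fatty acid and NADPH genes tested, 2 were called higher (6.25%) and 0 lower, against 2.43% higher and 4.69% lower over all genes tested. *Mlxipl*, which encodes the glucose-sensing factor ChREBP, had 440, 390, 400, 350 and 507 normalized counts in *Smad4del* mice, against 212, 268, 230, 203 and 222 in *Ctl* mice (log2 fold change 0.87, SE 0.143, limma adjusted p = 0.00616). *Scd3*, a desaturase beside *Scd1* and *Scd2* on chromosome 19, had 94.3, 65.9, 88.2, 56.2 and 85.6 in *Smad4del* mice, against 18.5, 33.97, 7.4, 9.59 and 18.9 in *Ctl* mice (2.24, SE 0.419, adjusted p = 0.0106). The cohorts did not overlap for either gene, and both stayed called when any 1 mouse was left out. With the macrophage level in the fit both were still called. With the endothelial level neither was, at log2 fold changes of 0.79 (SE 0.305) for *Mlxipl* and 1.78 (SE 0.902) for *Scd3*. The level of *Scd3* was low beside that of *Scd2*, and both genes share stretches with related desaturase genes.

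**Figure D5:**
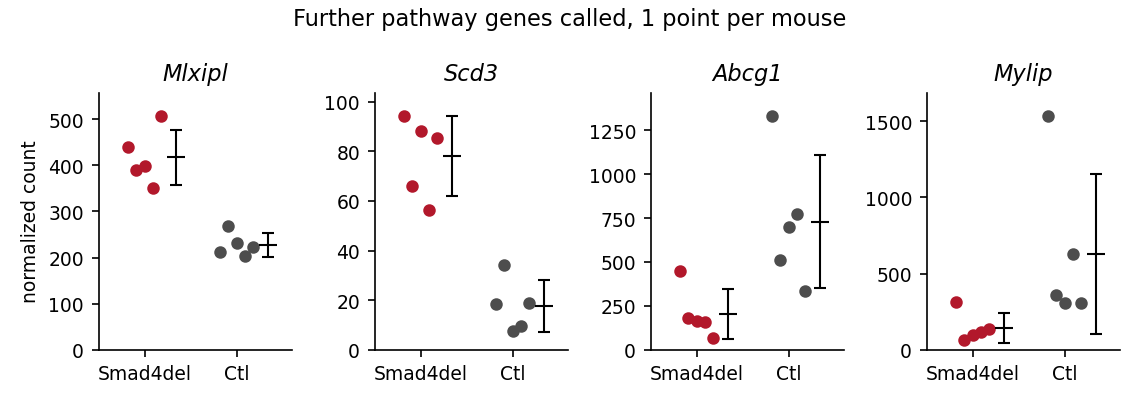
Normalized counts (y axis, from 0) of the 4 further pathway genes called, 1 point per mouse for 5 *Smad4del* (left) and 5 *Ctl* (right) mice, with the mean and SD beside the points. *Mlxipl* and *Scd3* are higher in every *Smad4del* mouse, and *Abcg1* and *Mylip* are lower on average with overlapping cohorts.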

How the data were processed

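RNA sequencing of sorted reactive cholangiocytes (EPCAM+, CD45-, TER119- and negative for the dead cell dye) gave 1 library per mouse, 5 *Smad4del* and 5 *Ctl*. The labels also carry a cell line tag and a culture protocol, whereas the methods describe cells sorted from liver, and the methods were followed. The authors deposited signal values: after trimming (Trimmomatic 0.36), STAR alignment to GRCm38.p5 and gene counting by featureCounts, the counts of each mouse were divided by its DESeq2 1.14.1 size factor (R 3.3.2) and not by gene length. The submitters' processing notes also name mm9. The methods describe counts of unique reads and counts that include multi-mapping reads. Which of them the values hold could not be told.

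Values were whole multiples of 1 step in 100% of entries (relative tolerance 1e-06), which gave back reads. In A5217 the step is 0.998, so that rounding cannot be told from steps alone, and count tests were also run without it, an alternative chosen after seeing the data. The lowest chi-square per degree of freedom over 45 pairs of mice was 26.1, so no 2 samples agreed within sampling noise.

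Limma 3.58.1 (R 4.3.3, trended prior) was fitted to log2(normalized count + 1) of 14870 genes with a mean of at least 10, with no term beside the cohort, and p-values were adjusted over all of them (Benjamini-Hochberg, 0.05). The pseudocount understates fold changes of low genes. Single genes were also compared by an exact two-sided permutation test, whose p-values were not adjusted. Alternatives were pseudocounts of 0.5 and 10, no minimum and a minimum of 50, median and quantile scaling, and leaving out each mouse. Count tests on the reads given back (DESeq2 1.42.0, edgeR 4.0.16) were also run. Covariates were *Xist*, the hepatocyte, endothelial and macrophage marker levels, and the mouse number as a split (A5215 to A5221 against A5447 to A5628).

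Every mouse's value was to be given for members called, or the 8 with the smallest p if fewer were called, and for further pathway genes called. *Scd1* was added after its values were seen. Some genes of the further lists are not reported here and were left out of the lists' counts. The members and lists were chosen with earlier results of these data known. Promoters came from RefSeq (GRCm38.p6), matched by symbol.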

Additional observations from a re-analysis of the deposited data

Results flagged for a closer look

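In 3 of 70 sets of 5 mice (35 genes in 2 cohorts), the highest or lowest mouse stood far from the others by Dixon's criterion, which chance meets in about 1 of 20 sets. *Me1* was at 3109 normalized counts in *Ctl* mouse A5215, below the other *Ctl* mice. *Abcg1* was at 449.9 in *Smad4del* mouse A5216, above the other *Smad4del* mice. *Mylip* was at 1535 in *Ctl* mouse A5215, above the other *Ctl* mice.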

How the results depend on the processing

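*Hsd17b7*, *Msmo1* and *Me1* kept their direction in all 25 alternatives. They stayed called in 23, 22 and 14 of them, and the cause of each loss was not tested. The number of members higher in *Smad4del* (1) was 0 with no minimum, with edgeR (with or without A5217), and with the endothelial or macrophage level as a covariate. The number lower (2) was 0 with either of those covariates and 1 with edgeR without A5217. Leaving out a mouse gave 0 to 1 higher and 2 to 3 lower. The median of the members kept within -0.13 to 0.08, and leaving out a mouse gave -0.07 to 0.01. Over all genes, the 362 higher became 209 with no minimum, 626 with median scaling, 579 with quantile scaling, 893 with DESeq2, 159 with the macrophage level, 0 with the endothelial level and 89 with edgeR without A5217. The 697 lower became 1290 with DESeq2, 422 and 0 with those levels and 265 with edgeR without A5217. Leaving out a mouse gave 105 to 563 higher (lowest without A5217, highest without A5447) and 329 to 852 lower. Of the further pathway genes, the 2 higher became 1 at a minimum of 50, 4 with median scaling, 5 with DESeq2 and 0 with the endothelial level, and the 2 lower became 7 with DESeq2, 4 with DESeq2 without A5217, 6 with *Xist*, and 0 with the endothelial level or with edgeR without A5217. Leaving out a mouse gave 2 to 3 higher and 0 to 5 lower (0 without A5217 or A5218). The sign turned for *Insig1* (0.084) with the endothelial level. It turned for *Scd1*, never called, with the hepatocyte level (-0.45), *Xist* (-0.21) and without A5217 by DESeq2 (-0.205) and edgeR (-0.19), and ran from -0.15 to 0.43 as mice were left out. No paired analysis was possible, because each mouse number is unique to 1 mouse and the labels do not give the litter. With 5 mice per cohort, the 95% intervals of the members were 0.23 to 1.15 wide on each side, so smaller log2 fold changes could not be resolved at this number of mice.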
